A study of Homo sapiens with 8 samples.

Results

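The *ID* genes and their upstream BMP (bone morphogenetic protein) signaling genes were followed in A375 human melanoma cells with and without serum. The 10 genes were *ID1*, *ID2*, *ID3* and *ID4*, the feedback genes *SMAD6* and *BAMBI*, the transducer *SMAD9*, the receptors *BMPR1A* and *BMPR2*, and the ligand *BMP4*. They were chosen by name, with the difference of *ID3* between serum-free and serum cultures in view, out of 58051 genes in the count files. That difference, -3.08 on the log2 scale, was the largest reduction among the 11532 coding genes that averaged 100 counts or more, and the next gene was *CHAC1* at -2.94. Serum values of the 10 genes are therefore given as a description with no p, and counts of those past the threshold stand only beside the share over all genes.

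The 4 wild-type lines WT1 to WT4 were each cultured for 12 h in DMEM with 10% fetal bovine serum (FBS) or in DMEM without it, giving 4 libraries with serum and 4 without, all from cells that had been expanded in the same serum-containing medium. A375 is an established melanoma cell line, and each line stands for 1 culture per condition. The labels do not say how the 4 lines were derived. RNA was depleted of ribosomal RNA and sequenced as paired ends, and the reads were counted per gene. The count data of both WT4 libraries bear a different name than their labels, which alone identify that line.

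Libraries held 29759279 to 73341551 counts on genes, and the alignments set aside because they mapped to several places came to 22.7% in WT1 and 16.8% in WT2 with serum against 5.73% to 10.1% in the other 6 libraries. Their part in the results was not tested. Among melanocyte lineage markers *MITF* (30.1 to 44.2 CPM, counts relative to library size) and *S100B* (13.6 to 34.9 CPM) were expressed, *PMEL*, *MLANA*, *DCT* and *TYR* stayed at or under 2.90 CPM, and *SOX10*, whose exons overlap those of *POLR2F*, was at 0 in all libraries. Of 3 leukocyte markers *PTPRC* and *CD3E* did not exceed 0.0514 CPM, and *LYZ* was at 2.50 to 7.55 CPM. Of 4 epithelial markers *EPCAM* and *CDH1* did not exceed 0.166 CPM, while *KRT8* and *KRT18*, whose exons overlap each other, were at 13.4 to 34.2 and 155 to 248 CPM. The 6 fibroblast markers summed to between 6.47 and 10.4 CPM with serum and between 8.09 and 10.5 CPM without. Some markers moved with serum. The fibroblast marker *PDGFRA* rose from 0.709 ± 0.197 to 2.39 ± 1.17 CPM in 4 of 4 lines with no overlap (log2 1.77, edgeR's adjusted p = 0.00767), and *MITF* fell from 40.2 ± 3.89 to 33.1 ± 2.58 CPM in 4 of 4 lines (log2 -0.28, edgeR's adjusted p = 0.0496, or 0.00351 with the line as a replicate block). With that block *DCN* (edgeR's adjusted p = 0.0125), *S100B* (0.0469), *KRT8* (0.00235) and *KRT18* (0.00857) were also higher and *DCT* (0.0251) lower, against 0.272 to 0.492 without it. The part of the markers and their cell types in the results below was not tested.

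BMP ligands bind pairs of type I and type II serine/threonine kinase receptors, which phosphorylate the receptor-regulated SMADs (*SMAD1*, *SMAD5* and *SMAD9*). These join *SMAD4* and enter the nucleus, where *ID1*, *ID2* and *ID3* are among the classical direct targets, together with the feedback inhibitors *SMAD6*, *SMAD7* and *BAMBI*. ID proteins have a helix-loop-helix domain but no DNA-binding region, and they hold E proteins such as *TCF3*, *TCF4* and *TCF12* away from DNA. Serum is a known source of BMP activity in culture, and ID proteins are known for keeping cells undifferentiated and cycling.

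*ID3* and *ID1* were lower without serum in every line. *ID3* stood at 27.6, 30.2, 28.4 and 37.8 CPM in WT1 to WT4 with serum and at 4.27, 3.74, 2.59 and 4.03 CPM without serum. The highest serum-free library was thus far below the lowest library with serum, and the lines kept between 9.15% (WT3) and 15.5% (WT1) of their serum level. The difference was 8.44-fold (log2 fold change -3.08, SE 0.17, n = 4 lines per condition), from means of 31.0 ± 4.69 and 3.66 ± 0.742 CPM (SD). It rested on 101 to 1982 counts per library. The gene lies on chromosome 1 of GRCh38.p14 (23557926 to 23559501) within a stretch that also holds the RefSeq gene LOC124903876. Whether reads of the latter were counted with those of *ID3* was not tested.

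*ID1* (chromosome 20, 31605289 to 31606510) was at 36.6, 43.0, 34.3 and 64.1 CPM in WT1 to WT4 with serum and at 13.7, 18.8, 10.5 and 19.5 CPM without. The conditions did not overlap here either, and each line retained 30.4% to 43.8% of its serum level. On the log2 scale the fitted difference was -1.50 (SE 0.26), or 2.84-fold, which gave *ID1* rank 9 from the lowest among the same 11532 genes.

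*ID2* (chromosome 2, 8682056 to 8684461) had few counts. Its values were 1.70, 0.974, 2.03 and 4.30 CPM with serum and 1.35, 0.681, 0.642 and 0.835 CPM without serum, from 25 to 122 counts per library. All 4 lines were lower without serum, yet the conditions overlapped, since WT2 with serum lay under WT1 without it. WT4 kept 19.4% of its serum level and WT1 79.7%, and the fitted log2 difference was -1.35 (SE 0.44), or -1.21 (SE 0.31) in the fit with the line as a replicate block. The difference was -0.84 without the serum library of WT4, and between -1.74 and -0.81 over 21 alternatives. The exons of *ID2* overlap those of the antisense gene *ID2-AS1*, and the strand setting of the counting is not given in the sources used here.

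*ID4* (chromosome 6, 19837370 to 19842197) went the other way. It was at 0.477, 0.441, 0.701 and 5.60 CPM in WT1 to WT4 with serum and at 1.16, 0.838, 1.23 and 9.01 CPM without. Every line was higher without serum, by 0.69 (WT4) to 1.28 (WT1) on the log2 scale. In WT1 to WT3 this rested on few counts, 18, 29 and 30 with serum and 49, 64 and 48 without. WT4 held more *ID4* RNA in either condition than any other line, so the conditions overlapped and the unpaired difference of 0.81 had an SE of 1.13. This unpaired difference moved when only 1 library of WT4 was left out, to -0.72 without its serum-free library and 2.51 without its serum library. Without both WT4 libraries it was 0.99. In the fit with the line as a replicate block, the difference was 0.87 (SE 0.19).

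**Figure D1:**
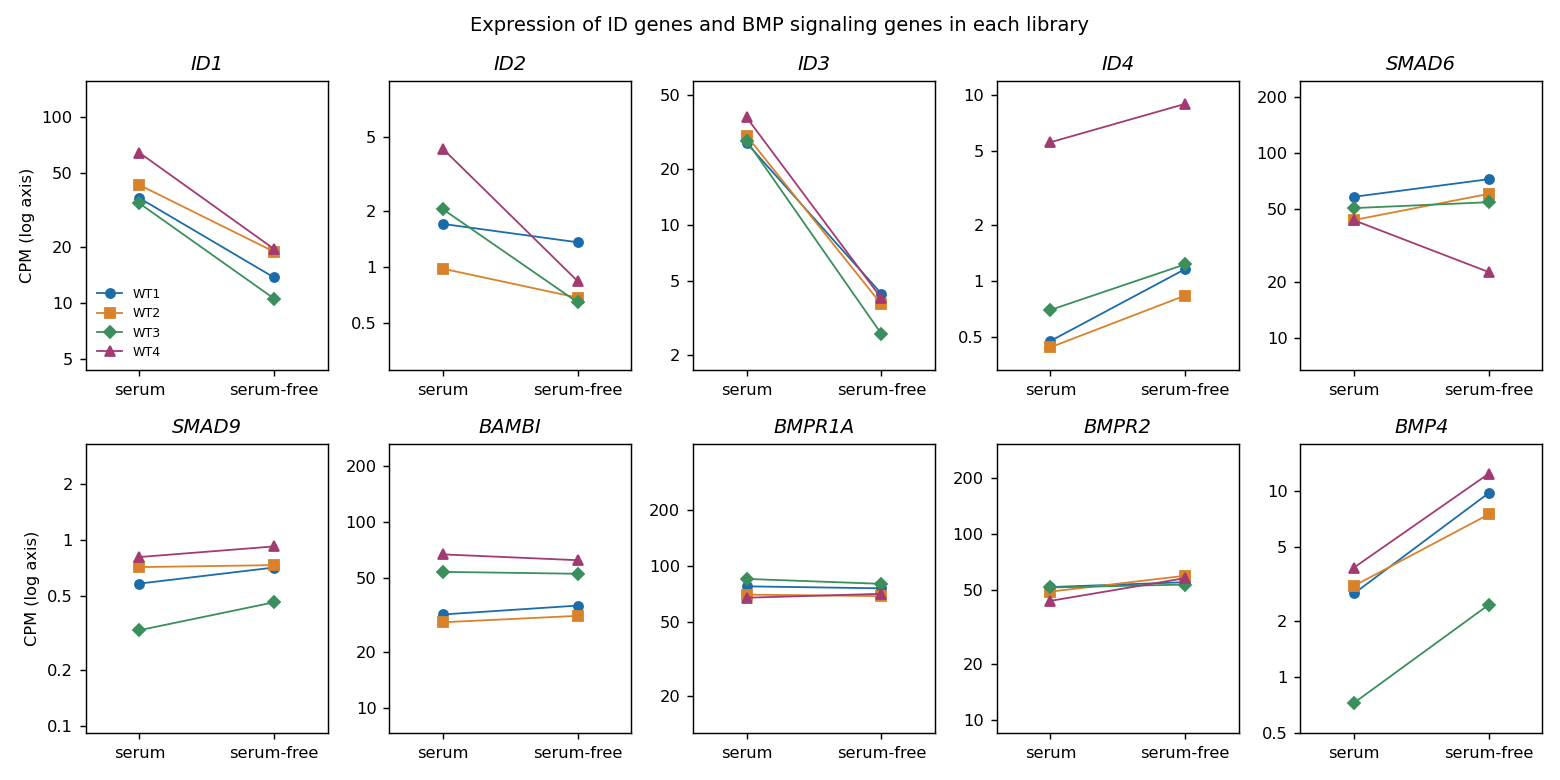
Expression of each of the 10 genes in each library, in CPM on a log axis that spans the same ratio in every panel, with a line joining the serum and serum-free libraries of WT1 to WT4. *ID1* and *ID3* are lower without serum in all 4 lines with no overlap, *BMP4* and *ID4* are higher in all 4 lines at different levels, and *SMAD6* is lower in WT4 and higher in the other lines.

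The region upstream of the start site is shown for the *ID* genes because the family members differed so widely in direction and level. Each run gives the 250 bases before the RefSeq start site on the gene's own strand (GRCh38.p14), for *ID1* chr20:31605039-31605288 on the plus strand, for *ID2* chr2:8681806-8682055 on the plus strand, for *ID3* chr1:23559502-23559751 on the minus strand, and for *ID4* chr6:19837120-19837369 on the plus strand. Capitals mark a TATA box core (TATAAA) or a SMAD box (CAGAC), on either strand.
ID1: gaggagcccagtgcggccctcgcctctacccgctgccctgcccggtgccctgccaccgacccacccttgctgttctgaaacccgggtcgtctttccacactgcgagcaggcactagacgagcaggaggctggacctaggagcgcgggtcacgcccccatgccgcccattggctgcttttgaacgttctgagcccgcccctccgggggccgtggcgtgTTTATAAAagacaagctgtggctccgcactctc
ID2: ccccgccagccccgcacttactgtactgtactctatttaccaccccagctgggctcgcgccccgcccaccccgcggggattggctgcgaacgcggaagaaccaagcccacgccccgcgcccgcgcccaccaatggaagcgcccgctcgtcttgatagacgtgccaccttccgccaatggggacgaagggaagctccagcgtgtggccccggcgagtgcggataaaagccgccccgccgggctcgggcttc
ID3: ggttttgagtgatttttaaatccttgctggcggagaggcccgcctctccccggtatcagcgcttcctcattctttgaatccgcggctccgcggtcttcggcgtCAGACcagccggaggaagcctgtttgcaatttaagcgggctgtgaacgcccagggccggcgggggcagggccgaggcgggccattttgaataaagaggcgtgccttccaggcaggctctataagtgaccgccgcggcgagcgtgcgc
ID4: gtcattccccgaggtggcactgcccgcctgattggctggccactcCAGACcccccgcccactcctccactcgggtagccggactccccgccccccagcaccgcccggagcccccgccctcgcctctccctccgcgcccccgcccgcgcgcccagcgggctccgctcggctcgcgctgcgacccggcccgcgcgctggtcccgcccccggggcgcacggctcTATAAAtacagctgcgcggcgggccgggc
The TATA box core was found 31 bases before the start site of *ID1*, where it overlaps a second match on the other strand that begins 33 bases before it, and 29 bases before the start site of *ID4*. It was not in these letters in *ID2* or *ID3*. A SMAD box stood 147 bases before the start site of *ID3*, next to a CREB half-site (TGACG) read on the other strand that starts 150 bases before it and overlaps the SMAD box, and another SMAD box stood 205 bases before that of *ID4*. In windows of 300 bases, which add 50 bases after the start site, 11.5% of 35116 RefSeq promoters held the TATA box core on either strand, 45.3% the SMAD box and 24.6% the CREB half-site, so these matches are common and describe letters only. The GC-rich SMAD element (GGCGCC, 19.2% of promoters) was in the windows of *BAMBI*, *BMPR2* and *BMP4* and in none of the 4 *ID* genes.

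The makeup of *ID* RNA differed along with its amount. Per gene length (RPKM, that is CPM divided by the exon length in kilobases), the 4 *ID* genes summed to 49.0, 55.6, 47.9 and 80.7 in WT1 to WT4 with serum and to 14.9, 18.3, 10.9 and 21.2 without. *ID3* made up 31.3% to 39.6% of this sum with serum and 12.7% to 19.2% without, while the share of *ID1* went from between 58.1% and 64.5% to between 74.5% and 83.5%. All shares here use merged exon lengths. With the length of the longest transcript, *ID3* averaged 32.6 RPKM with serum against 36.1 for *ID1*, and 3.85 against 12.7 without serum. The shares thus depend on the length used. *ID4* contributed at most 1.79% with serum, and without serum it reached 11.0% in WT4 and 1.18% to 2.92% in the other lines. The RNA of the *ID* family in serum-free cells was thus mostly that of *ID1* in all 4 lines. In these bulk cultures, fewer expressing cells and less RNA per cell cannot be told apart.

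The ligand *BMP4* (chromosome 14, 53949736 to 53956891) was higher without serum in all 4 lines. It measured 2.81, 3.09, 0.724 and 3.87 CPM in WT1 to WT4 with serum and 9.74, 7.49, 2.44 and 12.4 CPM without serum. The WT3 values rest on 31 counts with serum and 95 without. The ratio was close in the lines, from 2.42-fold in WT2 to 3.47-fold in WT1, although WT3 held the least *BMP4* in both conditions and its serum-free value lay under the serum values of the other lines. The fitted log2 difference was 1.62 (SE 0.58), and 1.60 (SE 0.14) with the replicate block. A RefSeq gene, LOC124903317, lies within the same stretch.

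The receptors differed little between conditions. *BMPR1A*, a type I receptor (chromosome 10, 86755763 to 86932844), was at 77.9, 70.3, 85.4 and 67.7 CPM with serum and 76.0, 69.0, 80.4 and 71.0 CPM without, a log2 difference of -0.02 (SE 0.09) whose sign turned to 0.11 when the block was combined with a correction for GC content. *BMPR2*, the type II receptor that serves most BMP ligands (chromosome 2, 202376327 to 202567749), was at 52.1, 49.2, 51.8 and 43.9 CPM with serum and 55.3, 59.9, 53.7 and 58.2 CPM without. All serum-free libraries lay above all libraries with serum, but the step was small, at 0.21 (SE 0.07) on the log2 scale or 1.15-fold, and 0.21 (SE 0.07) with the replicate block as well.

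*SMAD6*, an inhibitory SMAD that is itself a BMP target (chromosome 15, 66702236 to 66782849), split the lines. It went from 57.8 to 71.9 CPM in WT1, from 43.4 to 59.9 CPM in WT2 and from 50.3 to 54.1 CPM in WT3, but from 43.2 to 22.8 CPM in WT4. WT4 thus kept 52.7% of its serum level where the other lines reached 108% to 138% of theirs, and the fitted difference was 0.10 (SE 0.31). Each line has 1 library per condition, so this split between lines could not be tested.

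*BAMBI*, a decoy receptor that lacks the kinase domain (chromosome 10, 28677521 to 28682932), was at 31.7, 28.8, 53.7 and 66.7 CPM with serum and at 35.4, 31.1, 52.5 and 62.1 CPM without. It was slightly higher without serum in WT1 and WT2 and slightly lower in WT3 and WT4, with a log2 difference of 0.00 (SE 0.33) and, with the block, 0.03 (SE 0.06). *SMAD9*, a receptor-regulated SMAD (chromosome 13, 36844831 to 36920854), ranged from 0.327 to 0.924 CPM on 14 to 56 counts per library. Its log2 difference was 0.23 (SE 0.34), higher without serum in all 4 lines by 0.04 to 0.50. Leaving out the serum library of WT3 took the fitted difference to 0.02.

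**Figure D2:**
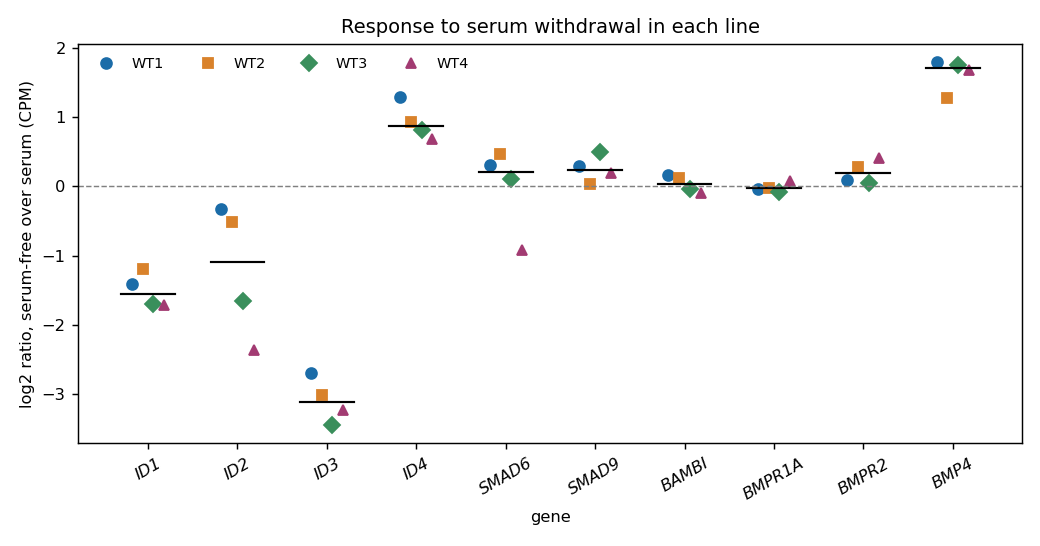
Log2 ratio of serum-free over serum CPM in each line, with a point per line and a bar at the median of the 4 lines. *ID1*, *ID2* and *ID3* lie below 0 in every line, *ID4*, *SMAD9*, *BMPR2* and *BMP4* above 0 in every line, and *SMAD6* spans 0.47 in WT2 to -0.93 in WT4.

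Over the 10 genes, the median log2 difference was 0.05 against 0.03 over all 17671 genes tested. In edgeR's fit over all genes 2 of the 10 were past the threshold of 0.05 on the adjusted p, both lower, where 25.1% of all tested genes passed (14.0% lower and 11.1% higher). With the line as a replicate block, 6 were past it, 3 lower and 3 higher, where 45.7% of all tested genes did (22.4% lower and 23.2% higher). Conditions did not overlap for 2 genes in the lower direction, against 15.0% of tested genes, and for 1 in the higher direction, against 12.6%. The choice of genes used this contrast, so these counts follow from the choice and are no test of it.

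Levels were compared between genes per gene length only. With serum, *ID1* had the highest mean at 36.1 ± 11.0 RPKM (SD, n = 4), followed by *BAMBI* at 21.1 ± 8.48 and *ID3* at 20.7 ± 3.13, and the ranges of *BAMBI* over the lines overlapped those of both others. Next came *BMPR1A* (7.48 ± 0.796), *SMAD6* (5.69 ± 0.810) and *BMPR2* (3.94 ± 0.304), then *ID2* (1.02 ± 0.648), *BMP4* (0.848 ± 0.434) and *ID4* (0.466 ± 0.654), whose ranges over lines overlapped, and *SMAD9* at 0.102 ± 0.0352. The median of 17425 genes was 2.75 RPKM, so *ID1* ranked at 1206, *ID3* at 2286 and *BMP4* at 11763.

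Without serum *BAMBI* had the highest mean at 21.2 ± 6.79 RPKM, with *ID1* at 12.7 ± 3.46. Their ranges overlapped, and in WT2 the order was turned (15.3 RPKM for *ID1* and 14.6 for *BAMBI*). *ID1* stayed above *ID3*, and *ID3* was at 2.45 ± 0.496, next to *BMP4* at 2.59 ± 1.36. *ID3* moved from rank 2286 to rank 9291 of 17425, and *BMP4* from 11763 to 9109. With the length of the longest transcript in place of all merged exons, *ID3* with serum came to 32.6 RPKM and *BAMBI* to 24.0, so their order depends on the length used. The same holds for *BMP4* (1.36) and *ID2* (1.10). *BMPR1A* came to 11.7 and *SMAD6* to 9.36, in the same order as before.

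**Figure D3:**
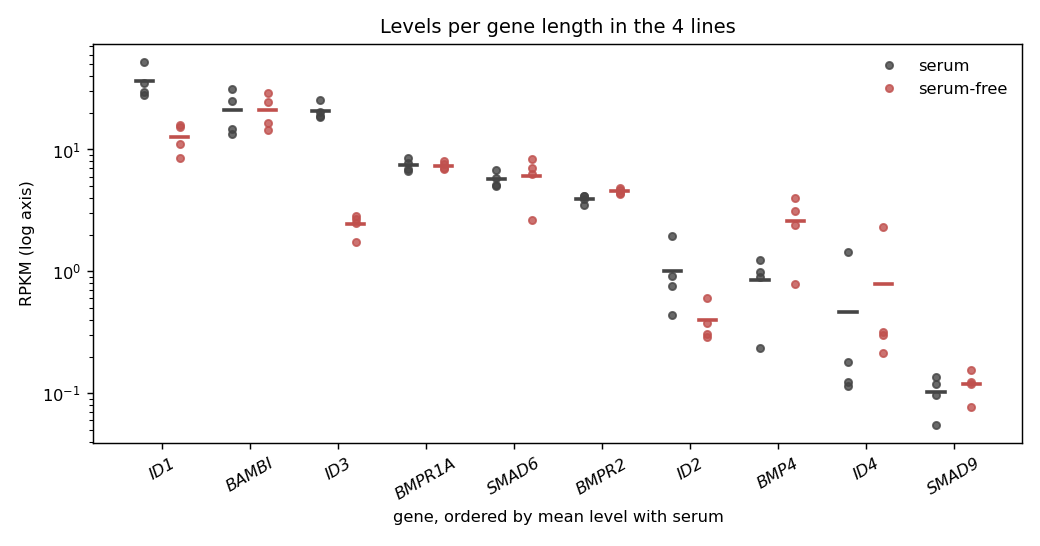
RPKM of the 10 genes on a log axis, ordered by mean level with serum, with a point per line and a bar at the mean of 4 lines for each condition. *ID1*, *BAMBI* and *ID3* are highest with serum, and without serum *ID3* sits at 2.45 RPKM beside *BMP4* at 2.59.

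The genes nearest to *ID3* were found by the root-mean-square distance between mean-centred log2 CPM profiles over the 8 libraries, among 13573 protein-coding genes. They were *CHAC1*, a glutathione-degrading enzyme (distance 0.56), *AREG*, a ligand of the EGF receptor (0.80), *ID1* (0.82), *ANKRD55* (0.86) and *KRTAP2-3* (0.90). *CHAC1* averaged 10.7 ± 6.18 CPM with serum and 1.39 ± 0.156 CPM without. *AREG* was at 4.77 ± 3.01 and 1.11 ± 0.753 CPM. Nearest to *ID1* were the sulfotransferase *SULT1B1* (0.34), the chemokine *CXCL3* (0.35), the cAMP phosphodiesterase *PDE4D* (0.38) and the histone genes *H4C4* (0.39) and *H3C12* (0.40), the last pair uncertain because near-identical histone copies share reads. *PDE4D* went from 80.4 ± 9.89 to 37.3 ± 8.43 CPM. All 5 distances from *ID1* were smaller than the smallest one from *ID3*.

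Other genes of the pathway had not been used to choose the 10, and their response to serum withdrawal was tested across all genes with edgeR. Their lists were made by role, but with earlier results of these data known. Of 72 genes listed by role, 50 had enough counts to be tested and 9 passed the threshold, 7 of them higher without serum and 2 lower. With the replicate block 28 passed, 18 higher and 10 lower. Both counts are to be set against the 25.1% and 45.7% of all tested genes given above, and the median log2 fold change of the 50 genes was 0.11 against 0.03 over all genes. Leaving out both libraries of 1 line changed the unblocked count to 2 without WT1, 4 without WT2, 4 without WT3 and 15 without WT4, where 8.78%, 11.3%, 10.4% and 31.7% of all tested genes passed. It was also 15 without the serum library of WT4 alone (33.5% of all tested genes). The ligands *BMP10* and *GDF2* and the antagonist *SOST* had no count in any library, which allows up to 0.101 CPM in the smallest (3 counts).

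Among ligands, 6 of 12 were tested. None passed without the block and 3 rose with it, *BMP2*, *BMP6* and *BMP7*, with a median log2 fold change of 0.67 for the list. *BMP2* went from 3.02, 2.18, 1.71 and 7.22 CPM in WT1 to WT4 with serum to 6.28, 3.17, 2.36 and 10.5 CPM without, a log2 fold change of 0.66 with the block (edgeR, adjusted p = 0.00164 after Benjamini-Hochberg correction of the quasi-likelihood test) and 0.68 without it (SE 0.59, adjusted p = 0.443). *BMP6* (0.65, edgeR's adjusted p = 0.00206, against 0.201 without the block) and *BMP7* (0.85, edgeR's adjusted p = 0.00442, against 0.506) were likewise higher in 4 of 4 lines. WT4 had the most *BMP2*, *BMP6* and *BMP7* in both conditions, as it had for *BMP4*.

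Receptors and co-receptors moved in both directions, with 2 of 9 tested genes higher and 1 lower. *RGMA*, a membrane-anchored BMP co-receptor, rose 2.75-fold, from 0.689, 0.776, 1.03 and 0.916 CPM in WT1 to WT4 to 3.22, 2.42, 1.67 and 2.06 CPM (log2 1.46, SE 0.25, edgeR's adjusted p = 0.00402). Its conditions did not overlap, on a median of 58 counts, and it passed the threshold under all 21 alternatives tried. The type II receptor *ACVR2B* rose by 0.33 (SE 0.08, edgeR's adjusted p = 0.0111, past the threshold in 19 of 21 alternatives with adjusted p from 0.000140 to 0.0849), and its paralog *ACVR2A* fell by 0.38 (SE 0.10, edgeR's adjusted p = 0.0239, in 14 of 21 alternatives with adjusted p up to 0.120). *ACVR2B* averaged 34.6 ± 2.76 CPM with serum and 43.7 ± 1.63 without, and *ACVR2A* 15.7 ± 1.66 and 12.1 ± 0.684. Each was separated between conditions in all libraries. With the block 5 of 9 passed. *NEO1*, a receptor for repulsive guidance molecules, was then also higher (0.24, edgeR's adjusted p = 0.00814, against 0.615 without the block) and *ENG*, a co-receptor of endothelial BMP signaling, lower (-0.21, edgeR's adjusted p = 0.00711, against 0.0784).

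None of the 7 tested SMAD transducers and turnover genes passed without the block, and with it *SMAD1* was higher (0.33, edgeR's adjusted p = 0.0292, against 0.181 without it) and *SMAD5* (-0.23, edgeR's adjusted p = 0.00422, against 0.103) and the ubiquitin ligase *SMURF2* (-0.33, edgeR's adjusted p = 0.00125, against 0.338) lower. *SMAD7*, the feedback inhibitor, averaged 14.2 ± 1.72 CPM with serum and 14.2 ± 1.93 without (log2 0.01, edgeR's adjusted p = 0.975, higher in 2 lines and lower in 2). The median of this list was 0.02. Of 15 secreted antagonists and modulators 5 were tested and none passed without the block. With the block *FST*, which traps activins and some BMPs, was lower by 0.67 on the log2 scale in 4 of 4 lines (edgeR's adjusted p = 2.84e-06, against 0.311 without the block), from 227, 240, 422 and 120 CPM in WT1 to WT4 to 120, 172, 254 and 81.1 CPM. *CHRDL1*, a BMP antagonist of the chordin family, was higher (0.52, edgeR's adjusted p = 0.00107, against 0.309) and *TWSG1*, a chordin cofactor, lower (-0.20, edgeR's adjusted p = 0.0261, against 0.149). With the block, 1 gene of this list thus rose and 2 fell.

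Among nuclear co-repressors 1 of 5 passed. *TOB1*, an antiproliferative protein that can bind receptor-regulated SMADs, rose from 32.3 ± 4.51 to 43.1 ± 2.04 CPM (log2 0.42, SE 0.10, edgeR's adjusted p = 0.0154, past the threshold in 19 of 21 alternatives with adjusted p up to 0.0955). With the block 3 of 5 passed, as the homeobox repressor *TGIF1* was then also higher (0.20, edgeR's adjusted p = 0.0171, against 0.318 without the block) and *SKIL*, a repressor that binds SMAD proteins, lower in 4 of 4 lines (-0.25, edgeR's adjusted p = 0.00777, against 0.140).

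Among other genes known to respond to BMP, 3 of 10 tested passed without the block, all higher without serum, and 5 passed with it, 4 higher and 1 lower. *ATOH8*, a helix-loop-helix factor induced by BMP in several tissues, rose from 1.67, 1.32, 3.04 and 2.01 CPM in WT1 to WT4 to 6.76, 5.80, 5.93 and 3.30 CPM (log2 1.44, SE 0.30, edgeR's adjusted p = 0.00792, in 20 of 21 alternatives, with 0.0689 without both WT1 libraries). *RUNX2*, the master regulator of bone formation, rose from 4.85 ± 1.16 to 7.81 ± 0.647 CPM (log2 0.68, SE 0.18, edgeR's adjusted p = 0.0214, in 16 of 21 alternatives with adjusted p up to 0.121). *HEY1*, a target shared with Notch, rose from 5.84 ± 1.41 to 10.5 ± 3.69 CPM (log2 0.85, SE 0.26, edgeR's adjusted p = 0.0381, in 12 of 21 alternatives with adjusted p up to 0.110). In all 3 genes the conditions did not overlap and 4 of 4 lines were higher. With the block the homeobox genes *MSX1* (0.40, edgeR's adjusted p = 0.0262, against 0.105 without the block, higher in 3 of 4 lines) and *DLX2* (-0.24, edgeR's adjusted p = 0.0386, against 0.668, lower in 4 of 4 lines) passed in opposite directions. The median of the 10 genes was 0.14.

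Of the partners of ID proteins, 1 of 5 passed, *TCF4*, an E protein, which rose from 16.4, 17.0, 16.8 and 14.7 CPM in WT1 to WT4 to 22.0, 22.2, 22.7 and 19.8 CPM (log2 0.42, SE 0.09, edgeR's adjusted p = 0.00767, in 18 of 21 alternatives with adjusted p up to 0.0635). With the block 4 of 5 passed. *TCF12* (0.17, edgeR's adjusted p = 0.0190, against 0.365 without the block) and *TWIST1* (0.51, edgeR's adjusted p = 0.000223, against 0.133) were then higher and *TCF3* lower (-0.23, edgeR's adjusted p = 0.0104, against 0.207), so the E proteins did not share a direction. *USP1*, the deubiquitinase known to stabilize ID proteins, fell from 209, 174, 177 and 145 CPM to 136, 134, 112 and 106 CPM (log2 -0.53, SE 0.12, edgeR's adjusted p = 0.0117, in 20 of 21 alternatives, with 0.0767 without both WT3 libraries). Its cofactor *WDR48* was higher with the block (0.34, edgeR's adjusted p = 0.000227, against 0.0529 without it), and *FZR1*, an activator of the ubiquitin ligase that targets ID proteins, passed in neither fit.

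**Figure D4:**
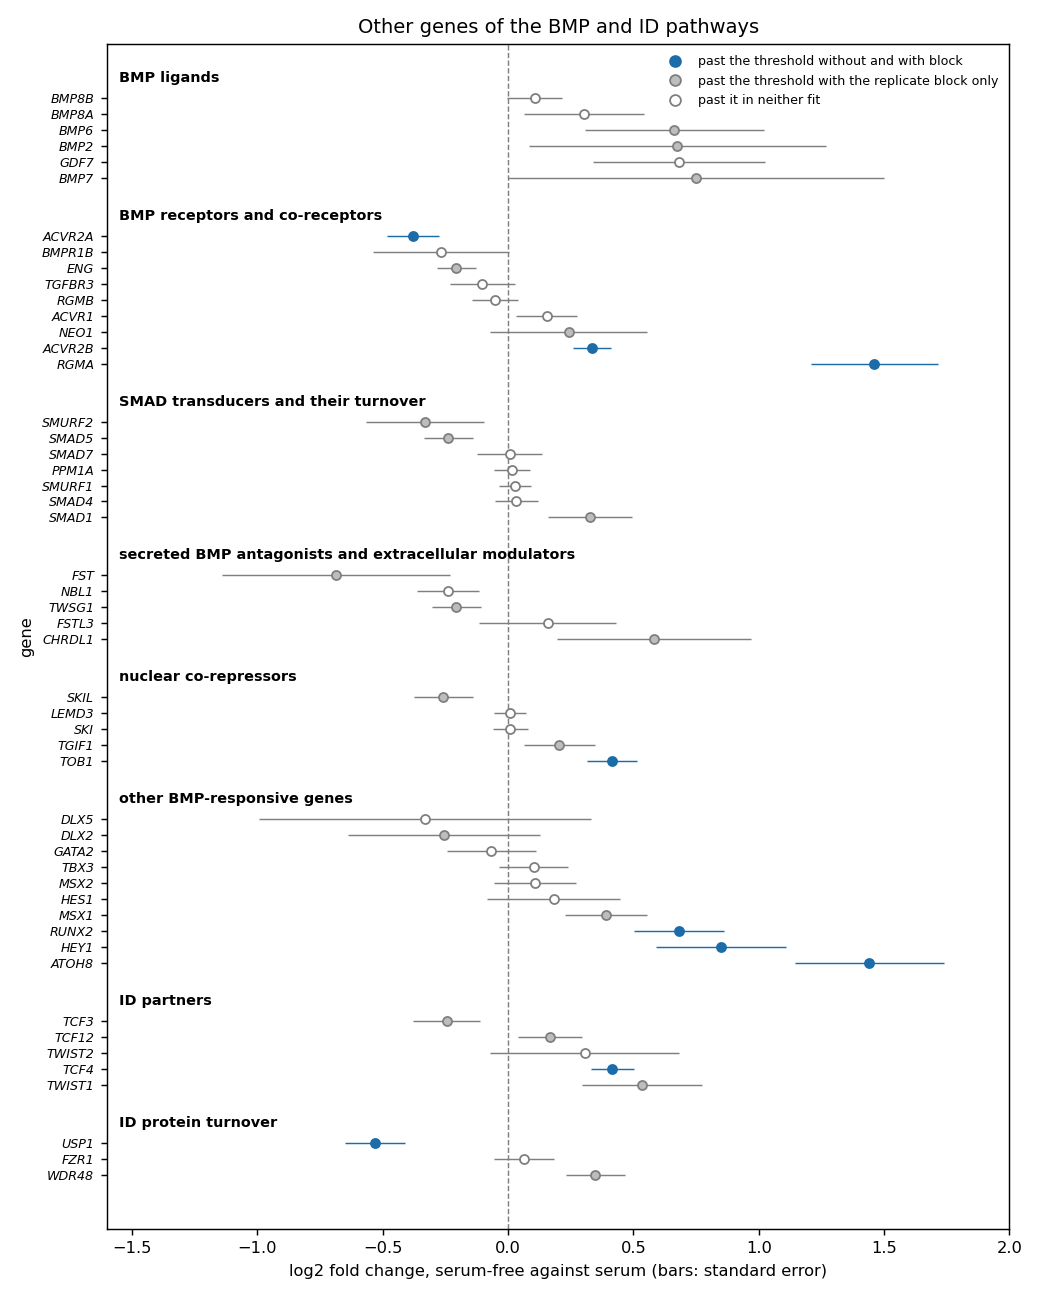
Log2 fold change, serum-free against serum, of the 50 tested pathway genes by role, from the fit without the block, with bars of 1 standard error. Blue points are the 9 genes past the threshold in both fits, grey points those past it only with the replicate block, and open points the rest; the BMP ligands all lie right of 0.

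Lines were compared with one another in a fit with line and condition, which asks a question separate from the serum contrast. Between lines 4 of the 10 genes differed, *ID1*, *ID4*, *BAMBI* and *BMP4*, where 22.9% of all tested genes did. Without the serum-free library of WT4 the count was 8, where 42.6% of all tested genes did. Each line is represented by 2 libraries of different condition, so the test compares these cultures and not a class of lines.

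*ID4* differed most, by 11.0-fold between WT4 and WT2 (edgeR's quasi-likelihood F test, Benjamini-Hochberg adjusted p = 1.23e-07), and the difference rested on WT4, since the adjusted p was 0.548 without that line. *BMP4* differed 5.06-fold between WT4 and WT3 (edgeR's adjusted p = 8.31e-06), with WT3 lowest in both conditions, and did not pass without WT3 (edgeR's adjusted p = 0.124). *BAMBI* differed 2.15-fold between WT4 and WT2 (edgeR's adjusted p = 1.14e-06), and WT3 and WT4 were above WT1 and WT2 in both conditions. *ID1* differed 1.86-fold between WT4 and WT3 (edgeR's adjusted p = 0.000382), with WT4 highest and WT3 lowest in both conditions. The last pair passed under all 18 alternatives. *ID3* did not pass (1.44-fold, edgeR's adjusted p = 0.151), nor did *ID2*, *SMAD6*, *SMAD9*, *BMPR1A* and *BMPR2*, with adjusted p from 0.0628 to 0.853 in edgeR. Of the 18 alternatives, *SMAD6* passed in 4, *BMPR1A* in 3, *ID2* in 2 and *ID3* in 1, and *SMAD9* and *BMPR2* in none. Among the other pathway genes 23 of 50 differed between lines, where 22.9% of all tested genes did. By fold *BMP7* differed most among these 23 (6.51-fold between WT4 and WT2, edgeR's adjusted p = 3.33e-05), and *FST* had the smallest adjusted p (3.32-fold between WT3 and WT4, edgeR's adjusted p = 9.27e-08).

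**Figure D5:**
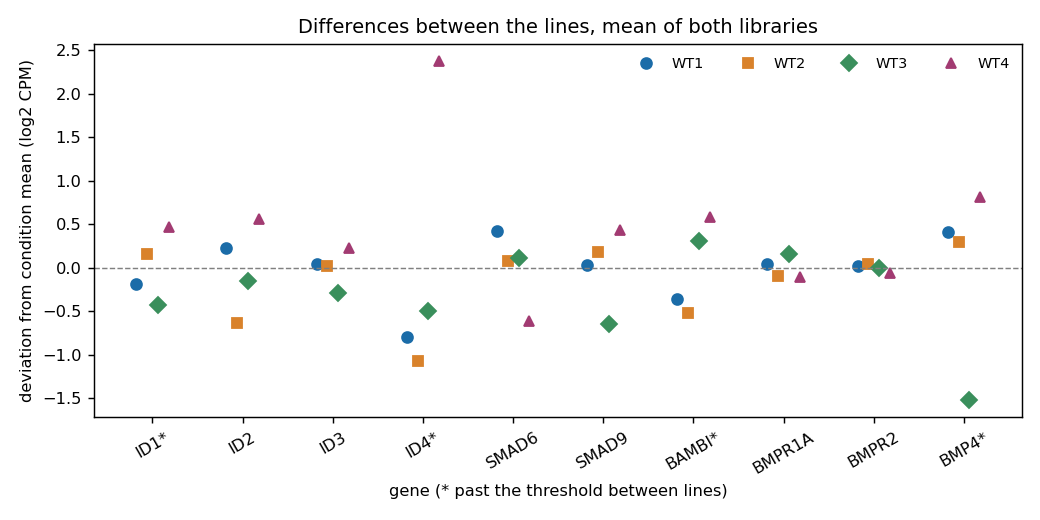
Deviation of each line from the mean of its condition, averaged over its serum and serum-free libraries, in log2 CPM, for the 10 genes, with an asterisk at genes past the threshold between lines. WT4 stands apart for *ID4* at 2.38 and WT3 for *BMP4* at -1.52.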

How the data were processed

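RNA was sequenced from 8 cultures, 4 lines with serum and 4 without, and the authors deposited raw counts per gene as whole numbers, which were not normalized. The submitters' processing notes name cutadapt, TopHat2 2.0.11, HTSeq and GRCh38. The paper's methods name hg19 for its own expression values, which were not used. The annotation release, strand setting and HTSeq version are not given in the sources used here. The 10 genes, the pathway lists and the markers were chosen with earlier results of these data known.

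Genes were filtered with filterByExpr (17671 kept, all 10 genes among them) and scaled by TMM. They were tested with edgeR 4.0.16 (glmQLFit with robust estimation) in R 4.3.3 without a block, with Benjamini-Hochberg adjustment over all tested genes and a threshold of 0.05. The deviations from the condition means were alike in the serum and serum-free library of a line (correlations of 0.40 to 0.60, at most 0.13 between different lines), so the line number also served as a replicate block, and where that changed a call or count both values are given. The labels do not say whether same-numbered cultures were started separately. Unblocked p-values rest on the spread between these cultures within a condition. Those with the block, and those between lines, rest on the deviations left after line and condition are fitted. CPM values are counts scaled to TMM library sizes. RPKM used merged exon lengths from GENCODE lifted to GRCh37, and GC content came from there too, for 17425 tested genes. Positions and promoters are RefSeq GRCh38.p14, with promoter entries for all 10 genes.

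All 10 genes are named. Of each pathway list the 2 genes with the smallest p past the threshold are named, as are the 5 genes nearest to *ID3* and to *ID1*. *ACVR2A*, *HEY1*, the genes past the threshold only with the block, the marker genes that moved, *SMAD4*, *SMAD7*, *FZR1* and the genes without counts fall outside that rule, and their values were known when they were picked. Alternatives were DESeq2 1.42.0, voom in limma 3.58.1, scaling by RLE or the upper quartile, a filter of 10 counts in every library or none, coding genes alone, each line or library left out, and the block with a GC correction. The tests were checked on simulated data.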

Additional observations from a re-analysis of the deposited data

Results flagged for a closer look

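*ID4* in WT4 stood far from the other 3 lines in both conditions. It was at 5.60 CPM with serum, where the other lines held 0.441 to 0.701 CPM, and at 9.01 CPM without serum, where they held 0.838 to 1.23 CPM. The gap to the nearest line took up 0.950 and 0.952 of the whole range, over Dixon's 95% critical value for 4 samples. Among 48 sets of 4 values examined, chance alone would mark about 2.4, and 2 were marked. The WT4 values rest on 159 and 507 counts.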

How the results depend on the processing

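The call count of the pathway genes went from 9 (7 higher, 2 lower) to 28 with the line as a replicate block (18 higher, 10 lower) and to 32 with the replicate block and a GC correction (20 higher, 12 lower). Leaving out a line or library gave 2 to 15 in all, 1 to 10 higher and 0 to 5 lower, with the extremes named in the report. Among the 10 genes, the count past the serum threshold was 2 (25.1% of all tested genes), and it became 6 with the block (45.7%), 4 with DESeq2 (30.2%, with no adjusted p for 1 of the 10) and 7 with the block and GC correction (46.8%). Without 1 line or library it ranged from 2 to 3, where 8.78% to 33.5% of all tested genes passed. Between lines the count was 4 and ranged from 3 to 8, the highest without the serum-free library of WT4, where the share over all genes was 42.6% against 22.9%. DESeq2, voom, RLE scaling, the filters and protein-coding genes only left the pathway counts at 9 or 10.

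The cause of these shifts was not tested. Log2 fold changes followed the GC content of genes (Spearman correlation of 0.36 across 17425 genes, which are not independent replicates), and with the block and GC correction *ID1* was at -1.70, *ID3* at -3.26, *BMP4* at 1.46 and *SMAD6* at -0.20. Upper-quartile scaling called 2508 genes higher and 1843 lower over all genes, against 1957 and 2477 with TMM. In the 21 alternatives *ID3* stayed between -3.26 and -2.96, *ID1* between -1.70 and -1.28 and *BMP4* between 1.30 and 1.91. Counts under 130 per library for *ID2* and *SMAD9*, for *ID4* in WT1 to WT3 (18 to 64) and for *BMP4* in WT3 (31 and 95) limit what can be said of them.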
